A study of Homo sapiens with 16 samples.

Results

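The Fc receptor-like genes FCRL1, FCRL2, FCRL3, FCRL4, FCRL5, FCRLA and FCRLB, 7 of the 19974 protein-coding genes considered here, were described by the histone mark peaks that lie over them, within 10 kb of them and in the intervals between neighbours. The 7 genes lie in 2 stretches of chromosome 1 (build hg38). FCRL5, FCRL4, FCRL3, FCRL2 and FCRL1 follow each other in that order and are all read towards lower coordinates, and their stretch runs with its flanks from 157503377 to 157830120 (327 kb). FCRLA and FCRLB are read towards higher coordinates, in a stretch from 161697229 to 161738143 (40.9 kb). The family was chosen from peak calls in these same lists, namely the presence or absence of peaks at its members with and without the inhibitor. The values below are therefore a description and carry no test, and with 2 libraries against 2 an exact permutation test could not go below p = 0.333.

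Chromatin immunoprecipitation and sequencing (ChIP-seq) had been done on Toledo cells, an established human line of diffuse large B-cell lymphoma. In the DMSO group the cells had grown in suspension with the solvent alone for 6 days, and in the CARM1i group for the same time with TP-064 at 5 uM, which blocks CARM1, a methyltransferase that acts on arginines. Antibodies to H3K27ac, H3K4me1 and H3K4me3 were used with 2 libraries per mark and treatment, and the 4 input libraries were not analysed here. One cell line stands for all groups, and the labels do not say that replicates came from separate cultures, so the spread between libraries may be technical. H3K4me3 peaks lay over or within 2 kb of 6 of 8 B-cell marker genes in all 4 libraries (CD22 and CD37 had them in some), and at 0 of 8 T and NK cell markers and 0 of 6 myeloid markers in any library.

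Fc receptor-like proteins are relatives of the classical receptors for the constant part of antibodies and are known mainly from B cells. FCRL1 to FCRL5 sit in the cell membrane, and their tails carry tyrosine motifs through which they raise or dampen signals from the B-cell receptor. FCRLA and FCRLB lack a membrane anchor and stay inside the cell. H3K4me3 marks promoters, H3K4me1 marks mainly enhancers, and H3K27ac marks promoters and enhancers that are active.

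The deposited lists give the start and end of each peak and no height, so read depth is unknown and a site without a peak may hold signal that the peak caller's threshold did not pass. The lists held 4016 to 7885 peaks for H3K27ac, 4094 to 25058 for H3K4me1 and 10048 to 12476 for H3K4me3. The DMSO and CARM1i libraries also carry different lane tags in the labels, so an effect of the lane and one of the inhibitor cannot be told apart. Over both FCRL stretches, H3K27ac peaks covered 44.5 and 35.7 kb in the DMSO libraries and 13.98 and 23.6 kb in the CARM1i libraries. Both inhibitor libraries thus lay below both DMSO libraries, with means of 18.8 ± 6.8 kb (SD, n = 2) against 40.1 ± 6.3 kb. DMSO replicate 2, whose H3K27ac list was the shortest of the 4, covered more of the FCRL stretches than either inhibitor library. Whether list length or read depth shaped these H3K27ac lengths was not tested. H3K4me1 covered 91.2 and 62.9 kb with DMSO and 30.7 and 33.5 kb with the inhibitor, and H3K4me3 covered 8.26 and 7.75 kb against 4.45 and 4.36 kb.

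The same lengths were set against everything covered in each list, since the lists differ in size. The FCRL stretches held 2.58 and 4.57 per mille of all H3K27ac-covered bases with DMSO and 1.34 and 2.48 per mille with the inhibitor. For H3K4me3 the share was 0.289 and 0.308 against 0.213 and 0.230 per mille. The order turned for H3K4me1, with 1.51 and 2.84 per mille in the DMSO lists and 3.37 and 4.03 per mille in the CARM1i lists. In lists restricted to the widest peaks, as many as the shortest list holds, that H3K4me1 difference shrank from 1.53 to 0.11 per mille (DMSO mean 3.62, CARM1i mean 3.73). So H3K4me1 peaks at these genes were fewer with the inhibitor, while their share of the much shorter inhibitor lists was not lower.

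**Figure D1:**
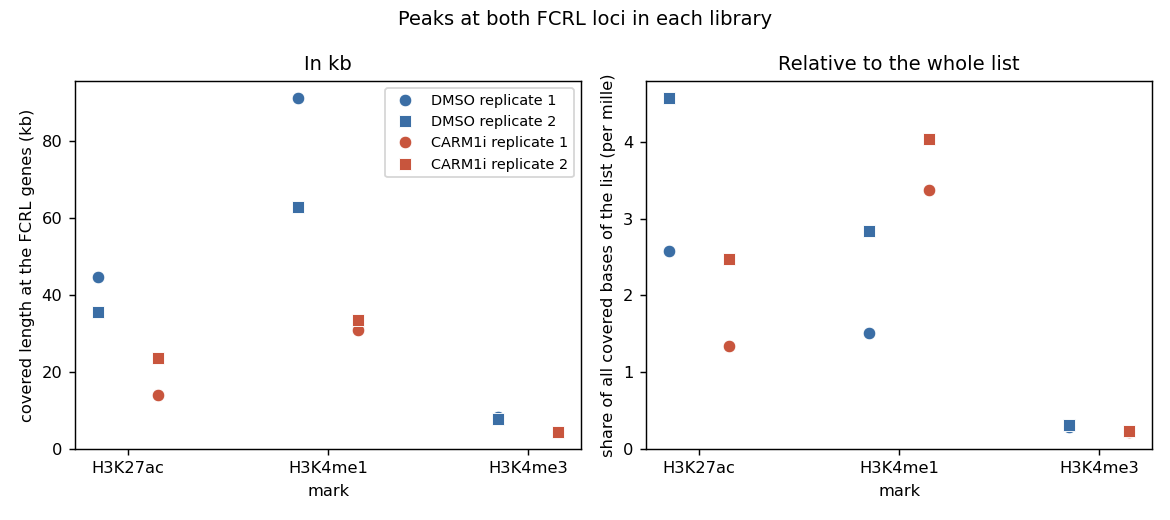
Length covered by peaks at both FCRL stretches (left, kb) and its share of all bases covered in the same list (right, per mille), for each mark; circles are replicate 1 and squares replicate 2, blue for DMSO and red for CARM1i. The CARM1i points lie below the DMSO points for each mark in kb, and above them for H3K4me1 when taken as a share (3.37 and 4.03 against 1.51 and 2.84 per mille).

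The promoters of the family were read from RefSeq's promoter table (GRCh38.p14), which matched all 7 genes with 9 starts. The 250 bases before the start are shown for 5 members, to let starts with different marks be compared: FCRL5 (chr1:157552516-157552765, minus strand) with H3K4me3 in the DMSO libraries alone, FCRLA (chr1:161706979-161707228, plus strand) with H3K4me3 in all 4, FCRL2 (chr1:157777133-157777382, minus strand) with H3K27ac within 2 kb in the DMSO libraries alone, FCRL1 (chr1:157820121-157820370, minus strand) with no H3K27ac within 2 kb and its nearest DMSO peaks 10968 and 11255 bp away, and FCRL4 (chr1:157598086-157598335, minus strand) with H3K4me1 only. Capitals mark the 7-base motif AGGAAGT or its reverse complement ACTTCCT, a purine-rich sequence of the kind bound by ETS factors such as PU.1.

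FCRL5: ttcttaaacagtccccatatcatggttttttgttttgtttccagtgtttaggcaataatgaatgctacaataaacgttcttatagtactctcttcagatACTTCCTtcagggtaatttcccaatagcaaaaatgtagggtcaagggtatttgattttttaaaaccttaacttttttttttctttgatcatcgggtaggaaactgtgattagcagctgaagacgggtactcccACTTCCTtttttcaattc

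FCRLA: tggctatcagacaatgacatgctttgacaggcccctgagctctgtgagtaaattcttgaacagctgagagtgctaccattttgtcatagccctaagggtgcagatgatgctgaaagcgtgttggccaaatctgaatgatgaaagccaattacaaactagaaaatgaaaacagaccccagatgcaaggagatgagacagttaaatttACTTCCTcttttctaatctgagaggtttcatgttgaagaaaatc

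FCRL2: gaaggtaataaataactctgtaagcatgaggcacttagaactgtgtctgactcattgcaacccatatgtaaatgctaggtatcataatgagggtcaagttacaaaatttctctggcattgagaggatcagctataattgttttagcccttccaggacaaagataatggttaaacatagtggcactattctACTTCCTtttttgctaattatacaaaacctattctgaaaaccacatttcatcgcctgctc

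FCRL1: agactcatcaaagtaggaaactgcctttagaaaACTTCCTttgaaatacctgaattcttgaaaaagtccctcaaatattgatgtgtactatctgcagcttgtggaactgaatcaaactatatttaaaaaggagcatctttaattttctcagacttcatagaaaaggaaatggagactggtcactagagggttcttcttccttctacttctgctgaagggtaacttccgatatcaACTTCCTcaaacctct

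FCRL4: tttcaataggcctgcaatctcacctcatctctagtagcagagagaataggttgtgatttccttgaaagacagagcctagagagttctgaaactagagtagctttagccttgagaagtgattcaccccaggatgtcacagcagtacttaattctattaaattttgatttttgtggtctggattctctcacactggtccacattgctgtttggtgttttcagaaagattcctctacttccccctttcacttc

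The motif was chosen after the sequences had been seen, and it was searched on both strands of the 300-base window that ends 50 bases after each start. It stood in the windows of FCRL5, FCRLA, FCRL2 and FCRL1, in each case as ACTTCCT on the gene's own strand, and in 8.02% of all 22132 starts of protein-coding genes. Counted from the start, its first base lay at -18 and -151 in FCRL5, -44 in FCRLA, -60 in FCRL2, and -16 and -217 in FCRL1. The longest run that the FCRL5 and FCRL2 windows share is the 12-base ACTTCCTTTTTT, which begins with that motif. It occurs in 12 of all starts (0.0542%), these members included. This run was the longest of all member pairs compared, and a run of that length is rare whatever its letters. The 11-base GTAGGAAACTG, shared by FCRL5 and FCRL1, lacks the motif and occurs in 7 starts (0.0316%). Nothing about the motif is therefore read from these frequencies. Of the motifs searched by name, the PU.1 core GAGGAAG (14.4% of all starts), which can overlap AGGAAGT, was in FCRL1, FCRLA and 1 window of FCRLB, and the ETS core CGGAAG (23.7%) in FCRL1. The octamer ATGCAAAT (1.65%) was in the first window of FCRLB, and the TATA box TATAAA (9.46%), the E box CAGGTG (20.0%), the EBF1 core CCCNNGGG (21.7%) and the MEF2 core TAAAAATA (1.60%) were in none. These are matches of letters and show no binding.

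All 9 windows were poor in CpG, which the choice of the genes did not use. They held 0 to 3 CpG, against a median of 21 over all starts, and their GC content ran from 36.3% (FCRL5) to 54.3% (FCRLB), against a median of 62.3%. Starts with up to 3 CpG seldom had H3K4me3 within 2 kb: 7.36% of 3206 had it in both DMSO libraries, against 26.7% of starts with 4 to 14 CpG and 74.8% of those with 15 or more. FCRL5 and FCRLA were the members with H3K4me3 there, and the starts of the other 5 had none in any library. Among starts of up to 3 CpG with H3K4me3 in both DMSO libraries, 15.7% had no peak in either inhibitor library, against 5.86% of all starts, and FCRL5 was 1 of the 2 member starts concerned. The order was the opposite for the other marks. Starts of up to 3 CpG lost H3K27ac at 15.1%, against 28.2% of all starts, and H3K4me1 at 51.5%, against 62.2%. A link between CpG content and the FCRL5 loss was not tested.

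**Figure D2:**
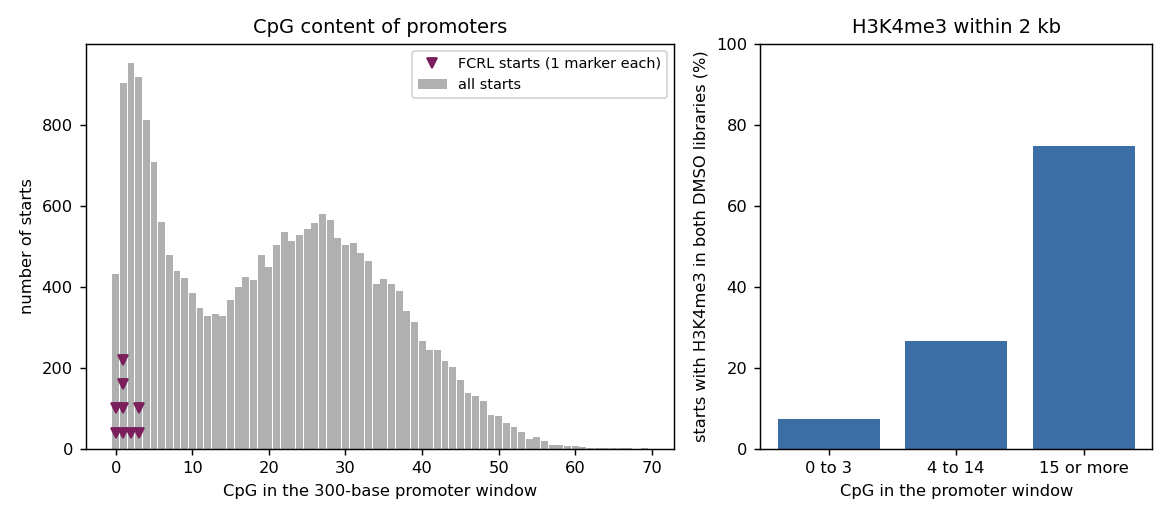
Left, number of starts of protein-coding genes (grey bars) by the CpG count of their 300-base promoter window, with 1 triangle per FCRL start; right, percent of starts with H3K4me3 within 2 kb in both DMSO libraries, by CpG count. The FCRL starts all lie between 0 and 3 CpG, the class with H3K4me3 at 7.36% of starts.

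Each gene was then described in turn, beginning with FCRL5, a membrane receptor that binds IgG and dampens B-cell receptor signals (157513377 to 157552515). Its start carried H3K4me3 peaks of 2164 and 1976 bp in the DMSO libraries and none in either CARM1i library. This was the one H3K4me3 region between FCRL5 and FCRL1 (157550868 to 157553031), and the nearest inhibitor peak of that mark lay 412994 and 413037 bp away. Its DMSO peaks were of middling width, wider than 49.9% and 44.0% of the peaks in their lists. H3K4me1 at the start was likewise called with DMSO alone, with peaks of 4893 and 2845 bp and none within 2 kb with the inhibitor.

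H3K27ac at the FCRL5 start covered 3492 and 4872 bp with DMSO, 1809 bp in CARM1i replicate 2 and 0 bp in CARM1i replicate 1. The region was therefore neither lost nor kept: it would count as lost without CARM1i replicate 2 and as kept without CARM1i replicate 1. The other end of the gene looked different. A region across the 3' end of FCRL5, 36868 bp downstream of the start (157509043 to 157515647), had H3K27ac in all 4 libraries, with 6395 and 5337 bp against 4835 and 5077 bp, and H3K4me1 in all 4, with 6441 and 5653 bp against 6581 and 5858 bp. H3K27ac there was narrower in both inhibitor libraries, whereas the H3K4me1 lengths of the groups overlapped. These were wide peaks, at percentiles 95.1 to 97.7 of width in their H3K27ac lists. A pair of H3K4me1 regions had peaks in the DMSO libraries alone, of 2092 and 2210 bp inside the gene (157523501 to 157525710) and of 2204 and 2148 bp beyond its 3' end (157504733 to 157507242).

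FCRL2 (157745733 to 157777132), a receptor with inhibitory motifs found on memory B cells, had wide H3K27ac cover before and across its start with DMSO. A stretch from inside the gene to beyond its start (157771743 to 157786805) was covered by H3K27ac over 14324 and 9556 bp with DMSO, and over 0 and 3697 bp with the inhibitor. CARM1i replicate 1 had no H3K27ac peak within 121049 bp of the start. H3K4me1 on the same stretch was in all 4 libraries, at 14858 and 14442 bp against 11541 and 8708 bp. H3K4me1 was thus called in both of its inhibitor libraries, and H3K27ac in 1 of its 2.

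Within that stretch H3K27ac fell into a part at the start and a part upstream. The part at the start (157772152 to 157778875) measured 6724 and 3361 bp with DMSO and 0 and 2111 bp with CARM1i, and the peak of DMSO replicate 1 alone crossed the start itself. The upstream part (157778935 to 157786582) measured 7600 and 6195 bp against 0 and 1586 bp, and its DMSO peaks were wider than 98.8% and 98.6% of their lists, against 46.2% for the CARM1i replicate 2 peak. Within 2 kb of the start itself the state was lost, with 3942 and 1036 bp covered against 0 and 0. That call turned on position: the peak of CARM1i replicate 2 ended 2009 bp downstream of the start, just outside the window, and with a window of 5 kb the call ended. No H3K4me3 peak lay near FCRL2, the nearest being 215464 to 215800 bp away.

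FCRL1 (157794403 to 157820120) encodes an activating coreceptor of B cells. A region inside the gene, 10968 bp downstream of its start (157803742 to 157809152), held H3K27ac peaks of 5411 and 3929 bp with DMSO and none with the inhibitor. It was the single H3K27ac region of the family to be lost, and its DMSO peaks were wide (wider than 96.4% and 93.8% of their lists). H3K4me1 at the same place covered 9497 and 6906 bp with DMSO, 5175 bp in CARM1i replicate 2 and 0 bp in CARM1i replicate 1. At the start of FCRL1 the only peak of any mark was H3K4me1 of 4740 bp in DMSO replicate 1, the library with the longest H3K4me1 list. Exons were not used here, so exonic and intronic positions within these genes are not given.

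FCRL4 (157573747 to 157598085), a receptor of tissue memory B cells that binds IgA, carried H3K4me1 and neither of the other marks. The region over its start (157593443 to 157599404) was present in all 4 libraries, with 5962 and 5416 bp against 3490 and 4146 bp, and was narrower in both inhibitor libraries. A second H3K4me1 region across its 3' end (157573488 to 157577415) had 3928 and 1915 bp with DMSO and none with the inhibitor. FCRL3 (157676481 to 157700956), which carries both inhibitory and activating tail motifs, had no peak of any mark on its body in any of the 12 lists. The sole peak within 10 kb of FCRL3 was H3K4me1 of 2013 bp in DMSO replicate 2, 3291 bp upstream of the start.

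**Figure D3:**
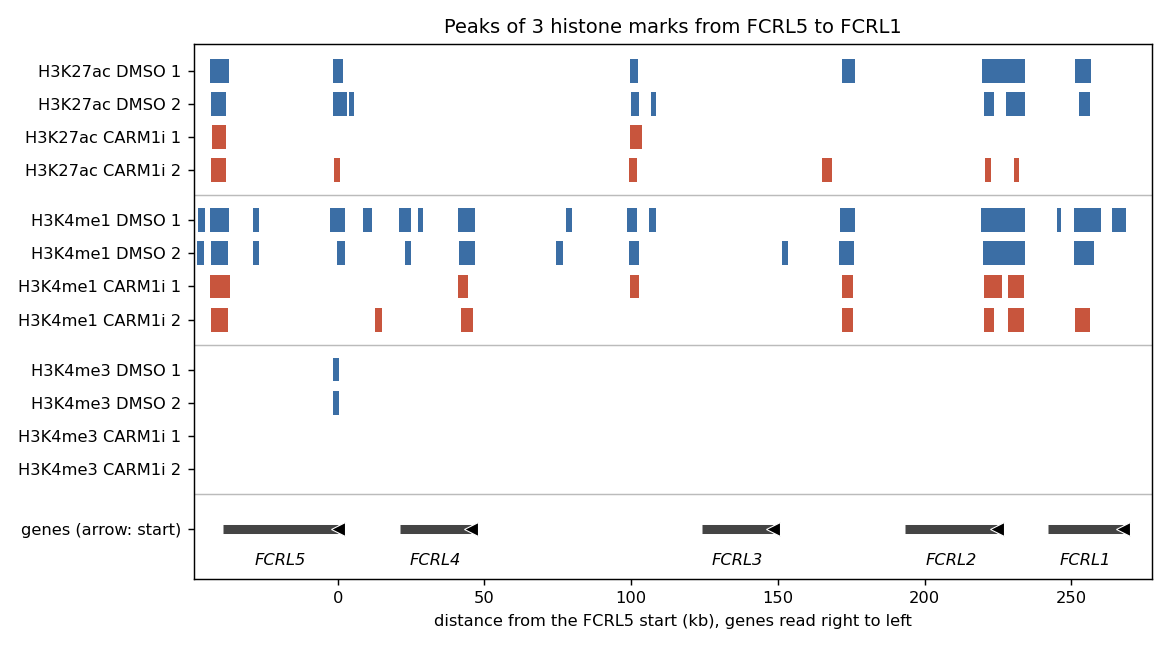
Peaks (bars) of each mark and library from 10 kb beyond FCRL5 to 10 kb before FCRL1, against the distance from the FCRL5 start in kb; blue is DMSO, red CARM1i, dark lines are genes and arrows their starts. Visible are the H3K4me3 peaks at the FCRL5 start in the DMSO libraries alone, the stretch without peaks over FCRL3, and the H3K27ac cover at FCRL2 of 14324 and 9556 bp with DMSO against 0 and 3697 bp with CARM1i.

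The intervals between neighbours held further sites. In the 78.4 kb between FCRL4 and FCRL3, a region (157651916 to 157656083) at the non-coding gene LOC105371457 had H3K27ac in all 4 libraries. Its lengths of 2566 and 2993 bp (DMSO) and 4117 and 2614 bp (CARM1i) overlapped, so here the acetylation was no shorter with the inhibitor. H3K4me1 at the same site (157651071 to 157655131) covered 3553 and 3512 bp with DMSO and 2828 and 0 bp with CARM1i. In the 44.8 kb between FCRL3 and FCRL2, H3K4me1 covered a region (157723438 to 157728726) in all 4 libraries, with 4902 and 5073 bp against 4046 and 3585 bp. H3K27ac was called there in DMSO replicate 1 alone (4413 bp), and CARM1i replicate 2 had a peak of its own nearby (3447 bp, 157717388 to 157720834).

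FCRLA (161707229 to 161714352) encodes an intracellular protein of germinal centre B cells that binds antibodies. Its start kept H3K4me3 in all 4 libraries, at 2895 and 2686 bp in the DMSO group and 1892 and 1825 bp in the CARM1i group (161706650 to 161709544). H3K27ac at the start was also in all 4, at 4364 and 2994 bp against 2491 and 2364 bp, and both marks were narrower in both inhibitor libraries. H3K4me1 around the same start, at 7260 and 3196 bp with DMSO, had no peak with the inhibitor. At the FCRLA start H3K4me3 and H3K27ac were thus called in both of their inhibitor libraries, and H3K4me1 in neither of its own.

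FCRLB (161721544 to 161728143) encodes a related intracellular protein. Its H3K4me3 and H3K27ac lay in the downstream part of the gene and across its 3' end, and not at any of its 3 listed starts. The H3K4me3 region (161725382 to 161728577) began 2729 bp downstream of the nearest start and was in all 4 libraries, with 3196 and 3085 bp against 2555 and 2530 bp. The H3K27ac region (161725646 to 161729227) had 3553 and 2634 bp with DMSO against 2533 and 2741 bp, lengths that overlapped. No other gene of the RefSeq table overlaps that place. Between FCRLA and FCRLB, H3K4me1 was in all 4 libraries (161716520 to 161720515), at 3996 and 3178 bp against 2249 and 1299 bp, and CARM1i replicate 2 alone had H3K27ac there (1896 bp).

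**Figure D4:**
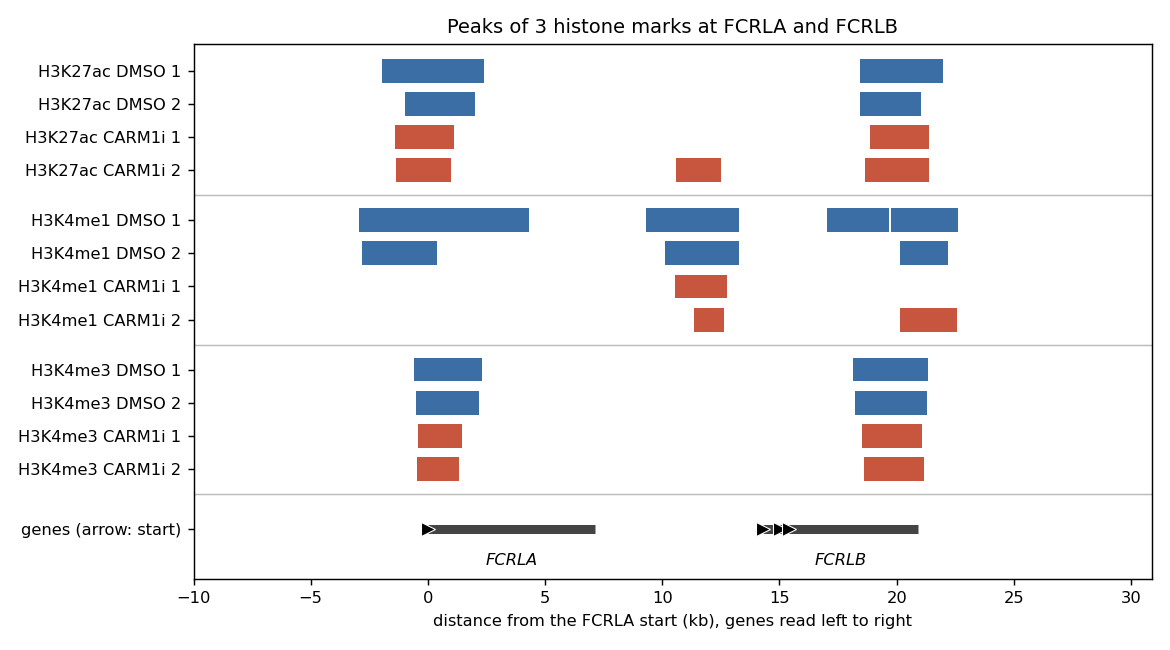
Peaks (bars) of each mark and library at FCRLA and FCRLB, against the distance from the FCRLA start in kb; blue is DMSO, red CARM1i, dark lines are genes and arrows their listed starts. H3K4me3 and H3K27ac stand at the FCRLA start and over the downstream end of FCRLB in all 4 libraries, and the H3K4me1 peaks at the FCRLA start (7260 and 3196 bp) are in the DMSO libraries alone.

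The edges of the windows decided a few sites. The outermost peaks inside were the DMSO H3K4me1 peaks beyond the 3' end of FCRL5, 1662 and 1356 bp inside the edge. Just outside lay an H3K4me1 site beyond FCRLB, 272 to 741 bp past the edge and present in all 4 libraries, which also had H3K27ac in DMSO replicate 1 (3625 bp, 529 bp past the edge). On the FCRL1 side, DMSO H3K4me1 peaks of 4462 and 2608 bp inside CD5L lay 465 and 2079 bp past the edge.

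Regions were then counted by their state, joining the peaks of the 4 libraries of a mark where they overlapped. Lost means a peak in each DMSO library and in no CARM1i library, and gained means the opposite. For H3K27ac, 1 of the 8 FCRL regions with peaks in both DMSO libraries was lost (24.5% genome-wide). For H3K4me1, 5 of 13 were lost, against 54.4% of such regions genome-wide, and for H3K4me3 1 of 3, against 10.9%. No FCRL region was gained: 0 of 4 for H3K27ac, 0 of 5 for H3K4me1 and 0 of 2 for H3K4me3 among regions with peaks in both CARM1i libraries, where 13.2%, 1.24% and 0.126% were gained genome-wide. The count of lost regions moved with single libraries. It was 4 for H3K27ac without CARM1i replicate 2, 3 without DMSO replicate 1 and 2 without DMSO replicate 2, and 12 for H3K4me1 without DMSO replicate 2. Gained regions numbered 2 for H3K27ac and 1 for H3K4me1 without CARM1i replicate 1.

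Many regions rested on 1 library. Of the 13 H3K27ac regions 5 were in a single library, and of the 23 H3K4me1 regions 10, of which 7 were in DMSO replicate 1, the longest list. The 3 H3K4me3 regions were each in 2 or 4 libraries. Of the regions kept in all 4 libraries, 2 of 4 for H3K27ac, 4 of 5 for H3K4me1 and 2 of 2 for H3K4me3 were narrower in both inhibitor libraries, against 28.0%, 77.3% and 81.9% of kept regions genome-wide. The median log2 ratio of covered length was -0.24, -0.53 and -0.45 over these few regions and -0.13, -0.73 and -0.27 over all kept regions. With at most 5 kept regions per mark, nothing is read from these differences.

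Over gene bodies with 10 kb around them, the members spanned a wide range. FCRL2, FCRL5 and FCRL1 stood highest for H3K27ac with DMSO, with mean covered lengths of 11.9 ± 3.4, 10.9 ± 1.5 and 6.83 ± 1.01 kb (SD, n = 2). FCRL2 and FCRL5, neighbours in that order, differed by less than their spread. FCRLA and FCRLB followed with 3.68 ± 0.97 and 3.09 ± 0.65 kb, also within their spread, and FCRL4 and FCRL3 had 0 in every library. With the inhibitor FCRL5 had 4.84 and 6.89 kb, FCRL2 0 and 3.70 kb, and FCRL1 0 and 0.085 kb, each library below both DMSO libraries. FCRLA, with 4.36 and 2.99 kb against 2.49 and 4.26 kb, and FCRLB, with 3.55 and 2.63 kb against 2.53 and 4.64 kb, overlapped between groups. The windows of FCRL2 and FCRL1 overlap, as do those of FCRLA and FCRLB, so these pairs share some peaks.

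Counted by gene, the H3K27ac length of each inhibitor library was below that of each DMSO library at 3 of the 5 members with peaks in both DMSO libraries (54.1% of such genes genome-wide). The counts were 6 of 6 for H3K4me1 (90.0%) and 3 of 3 for H3K4me3 (86.0%). These shares are close to or little above the background, and the members share windows. The median difference, CARM1i minus DMSO, was -5.06 kb for H3K27ac over those 5 members and -0.98 kb over 3469 genes, -6.00 against -4.22 kb for H3K4me1, and -0.93 against -0.56 kb for H3K4me3. Window lengths and the lengths covered with DMSO were not matched, so these medians are not read as a stronger loss in the family. Over whole windows, 0 of 5 members lost H3K27ac (24.1% genome-wide), 0 of 6 lost H3K4me1 (39.8%) and 1 of 3, FCRL5, lost H3K4me3 (4.79%). These counts are small and depend on the flank. FCRL1 missed the H3K27ac call only by 0.085 kb in CARM1i replicate 2, from the peak upstream of FCRL2. FCRLA kept H3K4me1 only through the region between FCRLA and FCRLB. The H3K27ac count was 2, FCRL2 and FCRL1, without CARM1i replicate 2, and the H3K4me1 count was 1, FCRL3, without DMSO replicate 1. Within 2 kb of the 9 starts, H3K27ac was lost at FCRL2 (28.2% of starts genome-wide with the mark in both DMSO libraries). H3K4me1 was lost there at FCRL5, FCRLA and 1 start of FCRLB (62.2%), and H3K4me3 at FCRL5 (5.86%). The FCRLB call rested on 259 and 251 bp of DMSO peaks inside the window.

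**Figure D5:**
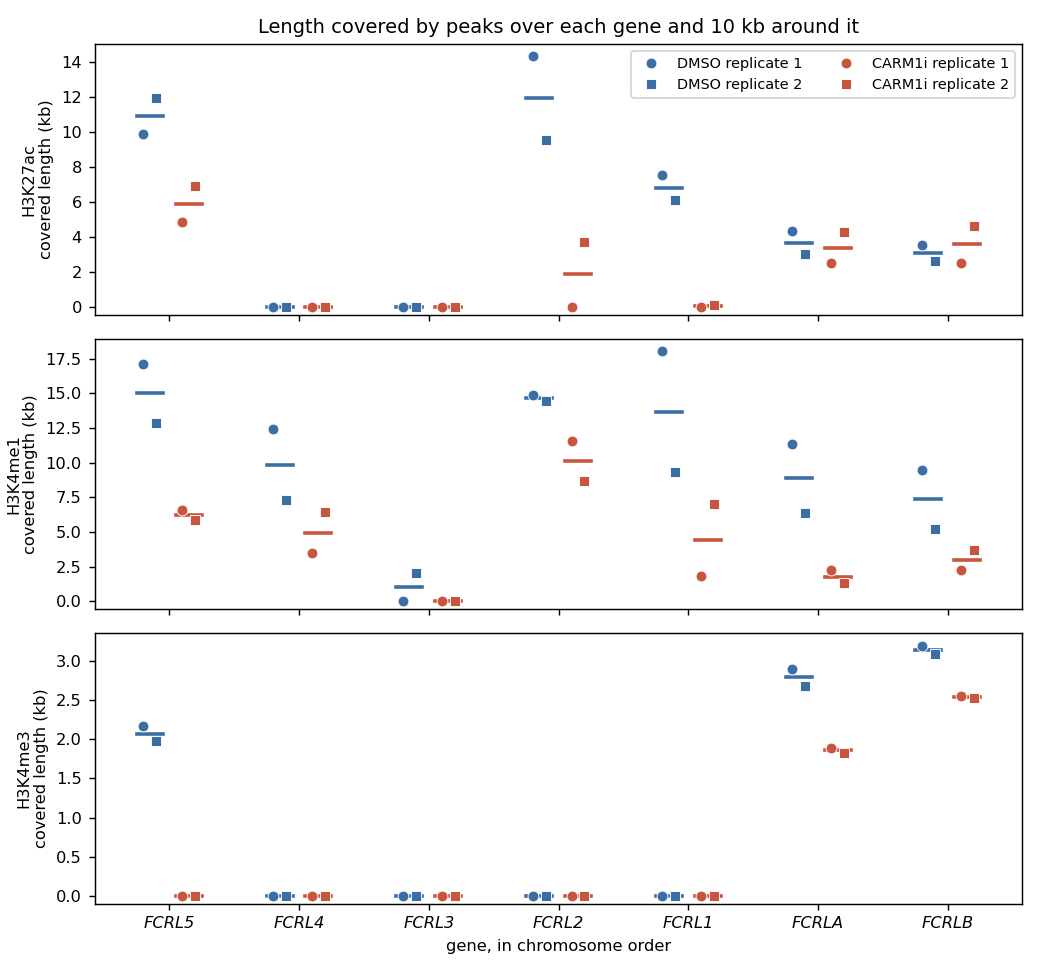
Length covered by peaks (kb) over each FCRL gene and 10 kb around it, 1 panel per mark; points are libraries (circles replicate 1, squares replicate 2), horizontal lines their means, blue DMSO and red CARM1i. H3K27ac with the inhibitor lies below both DMSO libraries at FCRL5, FCRL2 and FCRL1 and overlaps them at FCRLA and FCRLB, and FCRL3 and FCRL4 have no H3K27ac.

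Genes of the same pathway were set beside the family as listed groups, with the same windows. Of all genes with a mark in both DMSO libraries, 24.1% lost H3K27ac, 39.8% lost H3K4me1 and 4.79% lost H3K4me3. The groups are small, so no difference from these shares is read from their counts. Of 14 classical and related Fc receptor genes, H3K27ac was lost at 0 of the 2 that had it with DMSO, 1 of 4 lost H3K4me1 (FCER2, the low-affinity IgE receptor, 18.2 and 11.2 kb with DMSO) and 1 of 7 lost H3K4me3 (FCGR3B, an IgG receptor of neutrophils, 1.76 and 1.29 kb in its flank). Of 13 inhibitory receptors and phosphatases of B cells, 0 of 3 lost H3K27ac, 1 of 5 lost H3K4me1 (CEACAM1, an adhesion receptor, 3.22 and 0.151 kb) and 1 of 5 lost H3K4me3 (CD22, an inhibitory lectin, 1.56 kb in each DMSO library). Of 15 genes of B-cell receptor signalling, 0 of 10 lost H3K27ac. In that group the adaptor BLNK and the kinase BTK lost H3K4me1, and 1 of 15 genes lost H3K4me3, the complement receptor CR2. Of 15 B-cell transcription factors, 2 of 13 lost H3K27ac (BCL6 and SPI1, which encodes PU.1), 2 of 12 lost H3K4me1 (FOXO1 and PRDM1) and 0 of 14 lost H3K4me3. None of these 4 groups had a gene that gained a mark. Their median H3K27ac differences ran from -1.14 kb for the Fc receptors to -2.62 kb for B-cell receptor signalling, beside the -5.06 kb of the FCRL genes. The lengths covered with DMSO were not matched between groups, and the family was chosen from these peak calls. That order is therefore not read as a trait of the family. For H3K4me1 the FCRL median of -6.00 kb lay within the range of the groups, from -3.94 kb for the Fc receptors to -13.35 kb for the transcription factors. For H3K4me3 it was -0.93 kb, also within their range of -0.65 to -1.84 kb.

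Neighbouring genes within 100 kb varied. CD5L, which encodes a secreted protein of macrophages and lies 6.95 kb from FCRL1, lost H3K4me1 over its window (10.95 and 2.61 kb with DMSO, 0 with the inhibitor). DUSP12, a phosphatase gene, kept H3K4me3 at nearly equal lengths (4.03 and 4.01 kb against 3.86 and 3.86 kb), as did ATF6, a stress-response transcription factor (2.14 and 2.20 kb against 2.13 and 2.00 kb). FCGR2B, the inhibitory IgG receptor of B cells, lay in a stretch of 82.1 kb (161622212 to 161704282) that held no peak of any list. The classical Fc receptor genes there are near-identical copies, and whether reads could be placed in them was not tested.

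The genes with the most similar peak pattern were ranked by the mean absolute difference in the percent of the window covered over the 12 lists. For FCRL5 they were TFAP2C (2.61 percentage points), GAB1 (2.63) and IKZF3 (2.71), against a median of 11.3 over all genes. For FCRL2 they were GPR25 (3.13), ACY3 (3.25) and PIGR (3.76), against 12.5, and for FCRL1 GTSF1L (2.65), CD84 (2.93) and LOC124902325 (3.20), against 9.18. FCRL4, with peaks in 4 of the 12 lists, all of H3K4me1, was nearest to BCAN, SPRR1B and CYTH4 (0.871 to 0.963, against 5.87). FCRLA was nearest to AMZ2, FPGS and PRKRIP1 (2.15 to 2.70, against 12.6) and FCRLB to GGA3, GNB3 and CDCA3 (2.27 to 2.43, against 13.1). FCRL3, with a peak in 1 of 12 lists, was not ranked. The named genes were picked for the smallest differences, so their place below the median follows from the ranking itself. Lists in which neither gene had a peak also counted as alike.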

How the data were processed

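Histone mark ChIP-seq peaks of Toledo cells were analysed in 12 lists, 1 per library. Per the submitters' processing notes, reads were handled with Bowtie 1.1.2 and MACS 1.4.2 on hg38. For peak threshold, read filters and use of inputs the sources used here give nothing. The authors deposited 3 columns per list (chromosome, start and end) and no score, so values are positions and lengths in bp, read as BED coordinates and printed 1-based. Depth per sample is unknown.

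Overlapping or adjoining peaks of a mark's 4 libraries were merged into 1 region. Genes came from the RefSeq table of GRCh38.p14 (19974 protein-coding genes on chromosomes 1 to 22 and X), and starts and strands from RefSeq's promoter table (15812 of these genes). Covered lengths, states and promoter motifs were computed in Python 3.11.15 with numpy 2.4.6, and the code was tested on simulated data. Widths replaced a stricter score threshold, since the lists carry none. Alternatives were other flanks, gene windows alone, the widest peaks, joined gaps, a minimum cover and leaving out each library.

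All 7 members were named, with genes within 100 kb, lost and gained members of the 4 gene groups and the 3 genes most alike. The members and groups were chosen with earlier results of these data known. The planned count of tyrosine motifs in the proteins was not analysed here, and the H3K4me1 count of 1 gene group is not reported here. The start windows of 1 and 5 kb, the CpG classes, the share of each list's covered length, the motif AGGAAGT and the shared runs were added after seeing the data.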

Additional observations from a re-analysis of the deposited data

How the results depend on the processing

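Alternative settings gave 105 values of the summary results (lost and gained regions, genes lost and covered length at the FCRL stretches). Of these, 90 were classed as same and 15 as moved. Values classed as same could still differ. Without DMSO replicate 1, 7 H3K4me1 regions were lost in place of 5, and the H3K4me1 difference was -30.8 kb in place of -44.95 kb. Counts cannot turn sign, and no difference in covered length did. Counting a library only where its peaks cover at least 50% of a region gave 3 lost H3K27ac regions (1 in the main count) and 3 lost H3K4me1 regions (5 in the main count), and the widest peaks gave 2 lost H3K4me1 regions. With a flank of 2 kb 1 gene lost H3K27ac (FCRL1) and 1 lost H3K4me1 (FCRLA), against 0 each. With a flank of 25 kb 2 genes lost H3K4me3 (FCRL4 beside FCRL5, through the FCRL5 peak) and the difference in H3K4me3 covered length was -3.87 kb in place of -3.60 kb. Leaving out 1 library at a time gave 1 to 4 lost and 0 to 2 gained H3K27ac regions, 6 to 12 lost and 0 to 1 gained H3K4me1 regions, 0 to 2 genes that lost H3K27ac and 0 to 1 that lost H3K4me1. The difference in covered length, CARM1i minus DMSO, then ran from -26.1 to -16.4 kb for H3K27ac, from -59.1 to -30.8 kb for H3K4me1 and from -3.85 to -3.35 kb for H3K4me3. In the widest peaks it was -21.3 kb for H3K27ac and -32.4 kb for H3K4me1. The H3K27ac value is that of the main setting, because the cut left H3K27ac cover at the FCRL stretches unchanged. Of the 5 start states called lost, FCRL2 (H3K27ac) ended with a window of 5 kb, and that of 1 FCRLB start (H3K4me1) with windows of 1 or 5 kb. The causes were not tested. No paired analysis was possible because the results come from no test, and the labels do not say that equal replicate numbers mark a shared culture. Since the lists hold no reads, depth sets an unknown limit on every absent peak.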
